A study of Saccharomyces cerevisiae with 6 samples.

Results

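The alcohol dehydrogenase isozyme genes ADH1, ADH2, ADH3, ADH4 and ADH5 of budding yeast were followed with and without glycolaldehyde, a small reactive hydroxyaldehyde that occurs in hydrolysates of plant biomass. The genes were chosen by name, through the systematic name of their reading frame on the array: YOL086C, YMR303C, YMR083W, YGL256W and YBR145W. They are 5 of the 6225 gene identifiers that the array carries, and each has 1 probe printed in 7 spots. All 5 passed the filter on dim probes.

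RNA came from Saccharomyces cerevisiae labelled BY4743, a laboratory strain derived from S288C, and was measured on single-colour arrays. The 3 glycolaldehyde samples had been given 10 mM of the aldehyde for 4 h at 30 °C, and the 3 untreated samples had been grown in the same way without it. All were static cultures in synthetic medium with 2% glucose, per the labels' protocols, and RNA was prepared from 3 independent starter cultures. The growth entry of the labels reads anaerobic, so the oxygen supply is not settled, and the protocol does not say clearly whether the overnight culture also held the aldehyde. The labels call the strain haploid, although BY4743 is known as a diploid. Probes for URA3, LEU2 and HIS3, which this strain lacks, were well above background on 0 of the 6 arrays. Those for 12 of 12 haploid or mating-type genes were above it on all 6. Of all probes, 94.8% to 97.0% were above background per array, so the count of 12 does not settle the ploidy.

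Alcohol dehydrogenases interconvert alcohols and aldehydes with NAD(H) as the cofactor. In yeast growing on glucose, pyruvate is decarboxylated to acetaldehyde, and Adh1 in the cytosol reduces this to ethanol, which returns NADH to NAD. Adh2 is the isozyme that oxidises ethanol when glucose is gone, and its gene is repressed by glucose. Adh3 lies in the mitochondrial matrix and takes part in an ethanol and acetaldehyde shuttle for NADH. Adh4 belongs to a different protein family from the others and its gene is known for its response to zinc shortage. ADH5 is the copy of ADH1 left from the whole-genome duplication of yeast, and its own role is the least known. Adh1 can also reduce glycolaldehyde, to ethylene glycol.

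Which array was hybridised with which sample is recorded in different ways, and this bears on every value reported. The authors' table of signals per sample and the scanner files attached to the samples differ for 3 of the 6 samples. In 2 of these cases the array changes group: the array of glycolaldehyde replicate 1 in the table is the file attached to untreated replicate 3, and the array of untreated replicate 3 in the table is the file attached to glycolaldehyde replicate 2. The values here follow the table, which the choice of these genes names as the source of signal. Beside them stand values from the 4 arrays that both records put in the same group, glycolaldehyde replicates 2 and 3 and untreated replicates 1 and 2. The free-text descriptions reverse the treatment for every sample, and the groups here come from the titles, which match the treatment entries.

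Signal is given as a multiple of the 75th percentile of all probes on the same array, so that 1 means as bright as that percentile. It compares arrays for 1 probe and does not rank the isozymes by amount of transcript. Between 5929 and 6070 of the 6256 probes were well above background per array. Replicates 1 and 2 of both groups were scanned on day 1 and replicate 3 of both on day 2. Among the 4 arrays grouped alike, the only one of day 2 is glycolaldehyde replicate 3, so scan day is not balanced there. Over all genes tested, the SD of log2 differences between replicates 1 and 2 was 0.105 for glycolaldehyde and 0.0979 for untreated. It was 0.181 to 0.210 between replicate 3 and the others of its group, and 0.413 to 0.469 between arrays of different groups. These groups are those of the table, and the 2 arrays whose group differs between the records are included. Which record is right was not tested.

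With glycolaldehyde, ADH5 was lower by a factor of 4.37, ADH3 was lower by a factor of 1.36, and ADH2 was higher by a factor of 1.95. ADH1 and ADH4 did not pass the test. Tests were made with limma on all 5944 genes tested, with Benjamini-Hochberg adjusted p under 0.05. The share to set beside the 3 of 5 called is 53.1%, since 3158 of the 5944 genes were called. Of all 5944 genes tested, 29.6% were called higher, where 1 of 5 isozyme genes was, and 23.5% lower, where 2 of 5 were. In the 4 arrays grouped alike in both records 48.4% of genes were called, and ADH2, ADH3 and ADH5 were again called in the same directions. With arrays grouped as the scanner files are attached, 0 of 5924 genes were called in limma (smallest adjusted p = 0.916), none of the isozymes among them, and 2.31% had an unadjusted p under 0.05.

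**Figure D1:**
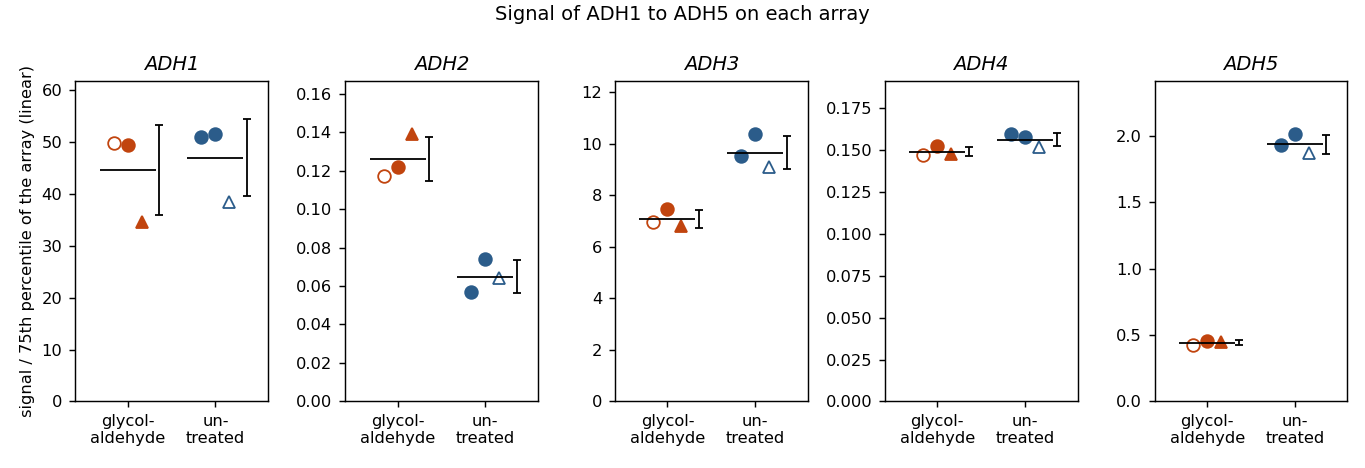
Signal of each isozyme gene on each array, as a multiple of the array's 75th percentile (linear axes from 0, one scale per gene), for glycolaldehyde on the left and untreated on the right. Circles are arrays of scan day 1, triangles those of scan day 2, open symbols the 2 arrays whose group differs between the records, and lines and bars the mean and SD over 3 arrays. ADH5 and ADH3 lie lower and ADH2 higher with glycolaldehyde on every array, while ADH1 is low in both groups on day 2.

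ADH5 had the largest change of the 5 genes. Its signal was 0.424, 0.459 and 0.447 on the arrays of glycolaldehyde replicates 1 to 3, against 1.93, 2.01 and 1.87 on those of untreated replicates 1 to 3. The groups were far apart, and the spread within each was small. The means were 0.443 ± 0.0176 with glycolaldehyde and 1.94 ± 0.0714 without (SD, n = 3 each). The log2 change was -2.13 ± 0.06 (limma SE, 95% interval -2.26 to -1.99, adjusted p = 5.28e-07). Only 10 of the 5944 genes tested fell further, and 1.82% were both called lower and at least 2-fold lower, ADH5 alone among the isozymes. Another 1.36% were called and at least 2-fold higher, none of the isozymes among them. Before any scaling between arrays the deposited intensities of ADH5 were 3716, 4121 and 6137 with glycolaldehyde and 18594, 18292 and 23809 without. The brightest glycolaldehyde array was thus well below the dimmest untreated array on that scale too.

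The records matter more for ADH5 than for any of the others. On the 4 arrays grouped alike, the log2 change was -2.12 ± 0.07 (adjusted p = 3.48e-05 in limma). Within scan day 1 it was -2.16, and within scan day 2, with 1 array per group, it was -2.07. With arrays grouped as the scanner files are attached, the array with a signal of 0.424 counts as untreated and the array with 1.87 as glycolaldehyde. Each group then holds both low and high values of ADH5, and its log2 change was -0.70 ± 0.80 (adjusted p = 0.916 in limma).

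ADH2, the glucose-repressed isozyme gene, was the single member called higher. Its signal was 0.117, 0.122 and 0.139 on the glycolaldehyde arrays, against 0.0570, 0.0738 and 0.0640 on the untreated arrays. Every glycolaldehyde array was above every untreated array. The means were 0.126 ± 0.0113 with glycolaldehyde and 0.0649 ± 0.00848 without (SD, n = 3 each), and the log2 change was 0.96 ± 0.11 (limma SE, 95% interval 0.72 to 1.21, adjusted p = 0.000266). The signal was low but measured, with 7 of 7 spots well above background on each of the 6 arrays. On the 4 arrays grouped alike the log2 change was 1.01 ± 0.14 (adjusted p = 0.00242 in limma). Within the slides that held both groups it was 0.70 on slide 2 and 1.12 on slide 3. ADH1 and ADH2 are near-identical in sequence, and the probe sequences were not used here, so signal that the ADH2 probe may take from ADH1 transcripts was not separated.

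ADH3, which encodes the mitochondrial isozyme, fell modestly. Its signal was 6.95, 7.46 and 6.83 on the glycolaldehyde arrays, against 9.53, 10.4 and 9.08 on the untreated arrays. The groups did not overlap. The means were 7.08 ± 0.336 with glycolaldehyde and 9.66 ± 0.648 without (SD, n = 3 each), and the log2 change was -0.45 ± 0.07 (limma SE, 95% interval -0.61 to -0.29, adjusted p = 0.00124). It was -0.46 within scan day 1 and -0.41 within scan day 2, and -0.48 ± 0.08 on the 4 arrays grouped alike (adjusted p = 0.00506 in limma). In all, 3 of the 5 isozyme genes had groups that did not overlap, where 60.9% of the genes tested did: ADH2 above all untreated arrays (33.8% of genes) and ADH3 and ADH5 below them (27.1%).

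ADH4, the isozyme gene of the separate protein family, had nearly the same signal on all arrays. It was 0.147, 0.152 and 0.148 with glycolaldehyde, against 0.159, 0.158 and 0.152 without, and the groups overlapped. The means were 0.149 ± 0.00273 with glycolaldehyde and 0.156 ± 0.00398 without (SD, n = 3 each), and the log2 change of -0.07 ± 0.05 did not pass (limma, adjusted p = 0.303). Its 95% interval, -0.19 to 0.05, does not hold the log2 changes measured for ADH2, ADH3 and ADH5.

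ADH1, the gene of the main fermentative isozyme, had no call but also the widest error of the 5. Its signal was 49.7, 49.5 and 34.6 on the glycolaldehyde arrays, against 51.1, 51.5 and 38.4 on the untreated arrays. The low value in each group was replicate 3, from scan day 2. The means were 44.6 ± 8.65 with glycolaldehyde and 47.0 ± 7.43 without (SD, n = 3 each), and the log2 change was -0.08 ± 0.17 (limma SE, 95% interval -0.47 to 0.31, adjusted p = 0.716). With scan day as a block the change was -0.08 ± 0.04 (95% interval -0.18 to 0.02, adjusted p = 0.116 in limma), and with the replicate block the interval was -0.20 to 0.03 (adjusted p = 0.183). The change measured for ADH3, -0.45, lies inside the interval of the fit without a block and outside both of these. Within scan day 1 the change was -0.05 and within scan day 2 it was -0.15. The sign turned without glycolaldehyde replicate 3 (0.09) and with quantile normalization (0.003). The 4 arrays grouped alike gave -0.31 ± 0.16 (adjusted p = 0.160 in limma), with 1 array of scan day 2 in the glycolaldehyde group and 0 in the untreated group.

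The spread of ADH1 followed the scan day rather than the treatment. The arrays of scan day 2 were also those of replicate 3 and the only ones on slide 3. Scan day, slide and culture cannot be told apart here. Its residual SD of 0.272 (log2) was larger than that of 97.8% of the genes tested, whose median was 0.0867. The deposited intensity of ADH1 spanned a 1.13-fold range, from 435754 to 491357 over the 6 arrays, while the 75th percentile of the arrays spanned 1.57-fold and was highest on the 2 arrays of scan day 2. No spot was marked saturated, and the brightest ADH1 spot on any array had a median pixel value at 62.2% of the scanner's saturation value. Other bright probes shifted in the same direction: in the brightest 1% of probes 61 of 63 were lower on scan day 2 after scaling, with a median difference of -0.25 (log2), against -0.02 over all probes. ADH1 itself differed by -0.47 between scan day 2 and scan day 1, and ADH2, ADH3, ADH4 and ADH5 by 0.10, -0.10, -0.04 and -0.03. With the arrays of a group and scan day averaged and scan day as a block, ADH1 had a log2 change of -0.10 ± 0.08 (adjusted p = 0.278 in limma). The SE was 0.08 for each of the 5 isozyme genes in this fit, so it does not reflect the spread of ADH1 itself.

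**Figure D2:**
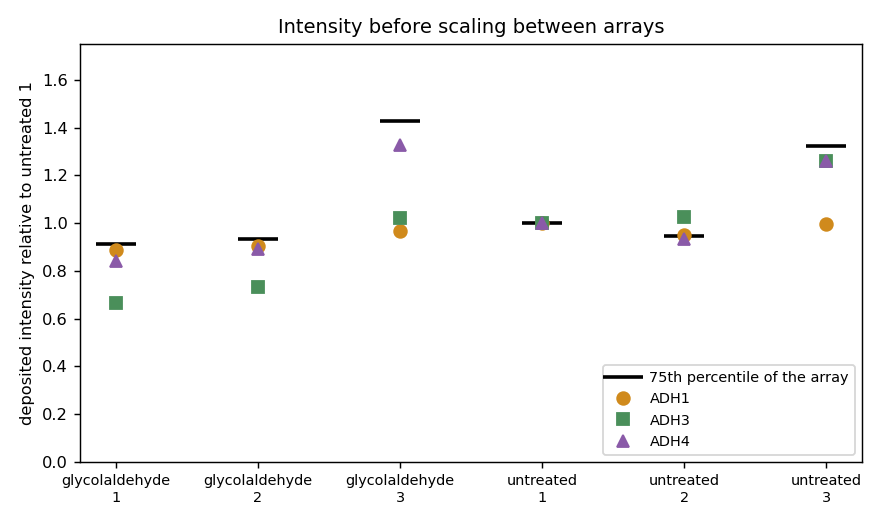
Deposited intensity of ADH1, ADH3 and ADH4 on each array, before scaling between arrays and relative to untreated replicate 1 (linear axis from 0), with black bars for the 75th percentile of the array. ADH4 moves with the percentile, which is high on replicate 3 of both groups, while ADH1 stays within a 1.13-fold range.

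The spots of a probe on 1 array gave a technical error for these values. The SD over spots ranged from 0.15 to 0.20 (log2) for ADH1 and from 0.04 to 0.12 for ADH3, and the other genes lay between 0.037 and 0.095. This spread is that of the measurement within an array and does not include the spread between cultures.

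Whether the isozyme genes changed unequally was tested on the difference between their log2 signals within each array. An exact permutation test of 3 arrays against 3 (two-sided) cannot go below p = 0.1, so no pair could pass, and adjusted over the 10 pairs no p was below 0.125. In 8 of 10 pairs the glycolaldehyde arrays all lay on the same side of the untreated arrays (exact p = 0.1 each). Of the single genes tested, 60.9% had groups that did not overlap. The share among pairs of all genes was not computed, and pairs that share a gene are not independent of each other. ADH2 against ADH5 differed most, with a change in the difference of 3.09 (log2), followed by ADH4 against ADH5 (2.06) and ADH1 against ADH5 (2.05). The other pairs were ADH1 against ADH3, at 0.37 (exact p = 0.2), and ADH1 against ADH4, at -0.01 (exact p = 0.9).

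**Figure D3:**
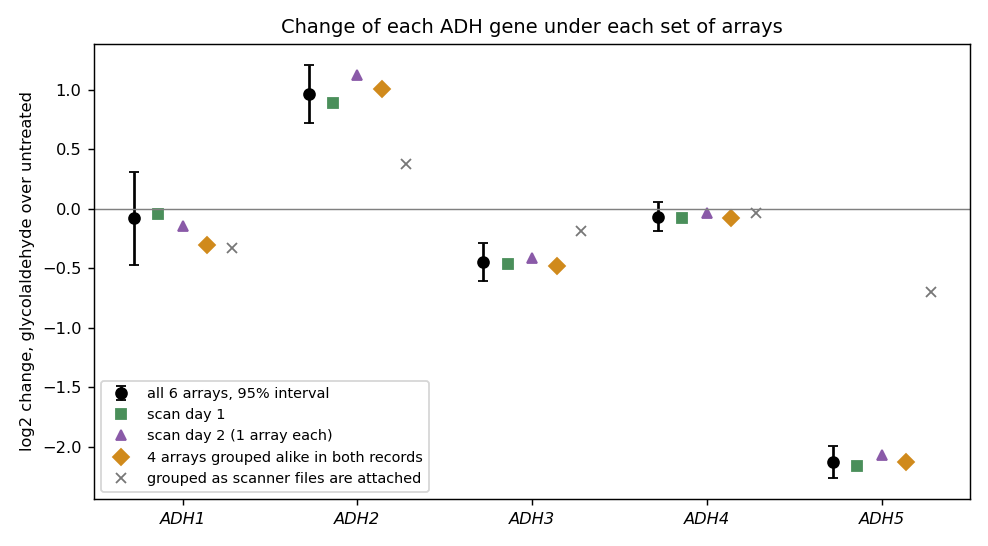
Log2 change of each isozyme gene, glycolaldehyde over untreated, from all 6 arrays with its 95% limma interval (black), within scan day 1 (squares), within scan day 2 (triangles), from the 4 arrays grouped alike in both records (diamonds) and with arrays grouped as the scanner files are attached (crosses). The first 4 kinds of value lie close together for ADH2, ADH3, ADH4 and ADH5, and the crosses lie nearer to 0 for ADH2, ADH3 and ADH5.

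**Figure D4:**
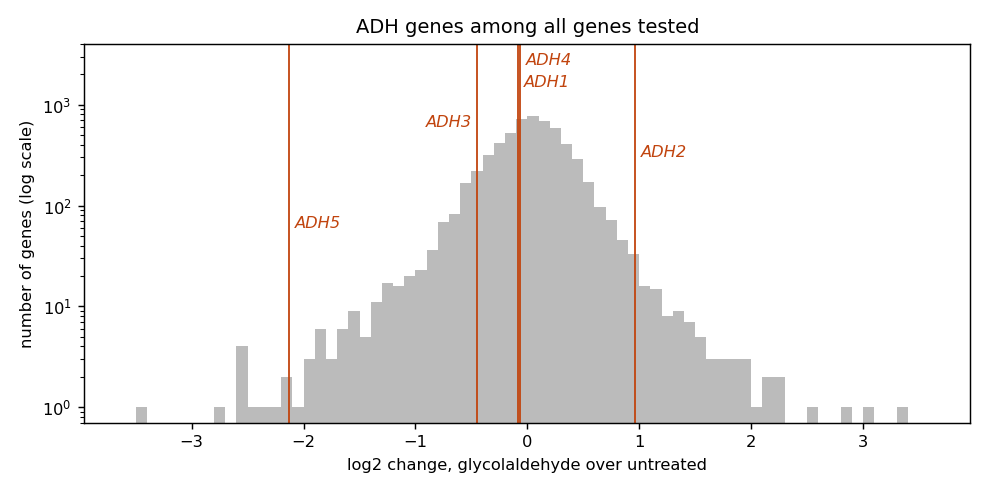
Number of genes (log scale) by log2 change, glycolaldehyde over untreated, for all 5944 genes tested, with lines at the isozyme genes. ADH5 stands in the sparse left tail at -2.13 and ADH2 in the right shoulder at 0.96, while ADH1 and ADH4 lie in the centre.

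Of 72 further genes of ethanol and acetaldehyde metabolism and of the known regulators of ADH genes, all were tested, and 17 were called higher and 28 lower, with a median log2 change of -0.08 (0.03 over all genes tested). The 4 arrays grouped alike gave 20 higher and 28 lower. For reading the counts that follow, 29.6% of all genes were called higher and 23.5% lower. On the 4 arrays grouped alike, 1565 of 5962 genes were called higher and 1319 lower.

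Upstream of the isozymes, the pyruvate decarboxylase genes PDC1 and PDC5, which make acetaldehyde, did not pass, at log2 changes of -0.07 ± 0.10 and 0.04 ± 0.06 (SE). PDC6, the minor isozyme gene, rose by 0.44 ± 0.07 (adjusted p = 0.00125 in limma). Of 7 genes that oxidise acetaldehyde or make acetyl-CoA, 1 rose and 3 fell (median -0.00114). The mitochondrial aldehyde dehydrogenase gene ALD4 fell by 0.67 ± 0.06, and ALD3, a cytosolic one, rose by 0.28 ± 0.09. The 4 arrays grouped alike gave 2 higher of the 7.

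The other alcohol dehydrogenase and aldehyde reductase genes went mostly up. Of 10, 8 rose and 2 fell, with a median of 0.49, and the counts were the same on the 4 arrays grouped alike. ADH7, an NADPH-dependent alcohol dehydrogenase gene, rose by 3.01 ± 0.07 (adjusted p = 4.21e-07 in limma), and its NADPH-dependent relative ADH6 rose by 0.50 ± 0.06. BDH2, a putative butanediol dehydrogenase gene, fell by 0.61 ± 0.07.

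Genes of other routes that reoxidise NADH went down or did not pass: of 9, 0 rose and 5 fell, with a median of -0.39. The 4 arrays grouped alike gave 1 higher and 5 lower. GPD2, a glycerol-3-phosphate dehydrogenase gene of glycerol formation, had signals of 0.130, 0.132 and 0.141 on the glycolaldehyde arrays, against 0.416, 0.540 and 0.457 on the untreated arrays. It fell by 1.80 ± 0.10 (adjusted p = 9.58e-06 in limma). MDH2, the cytosolic malate dehydrogenase gene, fell by 0.94 ± 0.06.

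ADH2 is known to be activated by Adr1 and Cat8 when glucose runs out, and the genes of both factors were lower with glycolaldehyde. ADR1 fell by 0.35 ± 0.09 (adjusted p = 0.0146 in limma) and CAT8 fell by 0.95 ± 0.08 (adjusted p = 6.89e-05). Of the 8 genes of glucose repression and of ADH2 control, 0 rose and 4 fell (median -0.21), and SNF1, the kinase gene of the pathway, fell by 0.19 ± 0.06. On the 4 arrays grouped alike 5 fell. Among 12 other genes known to depend on Adr1, 4 rose and 4 fell (median -0.02). FOX2, of fatty acid oxidation in the peroxisome, rose by 0.44 ± 0.06, and ATO3, a plasma membrane transporter gene, fell by 0.68 ± 0.15. With the 4 arrays alone 5 were called higher and 4 lower.

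Of 4 genes of activators of glycolytic transcription, among them Rap1 and Gcr1, which also act on ADH1, 0 rose and 3 fell (median -0.39), and the counts were the same on the 4 arrays grouped alike. TYE7 fell by 0.77 ± 0.07, GCR1 fell by 0.50 ± 0.07 and RAP1 fell by 0.28 ± 0.06. In 12 zinc homeostasis genes, taken up because of ADH4, 1 rose and 4 fell (median -0.06). ZAP1, the zinc-responsive activator gene, fell by 0.19 ± 0.06 (adjusted p = 0.0231 in limma), FET4, a low-affinity metal transporter gene, fell by 1.09 ± 0.06, and COT1, a vacuolar metal transporter gene, rose by 0.45 ± 0.06. With the 4 arrays alone 2 were called higher and 3 lower, and ZAP1 was not called (-0.15, adjusted p = 0.114 in limma).

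The Ehrlich pathway turns amino acids into higher alcohols and has an alcohol dehydrogenase step at its end. Of its 9 genes listed, 2 rose and 4 fell (median -0.18). The 4 arrays grouped alike gave the same counts, but the genes called lower were not all the same. ARO8, an aromatic aminotransferase gene, fell by 1.02 ± 0.08, and ARO10, a decarboxylase gene, rose by 0.49 ± 0.08.

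**Figure D5:**
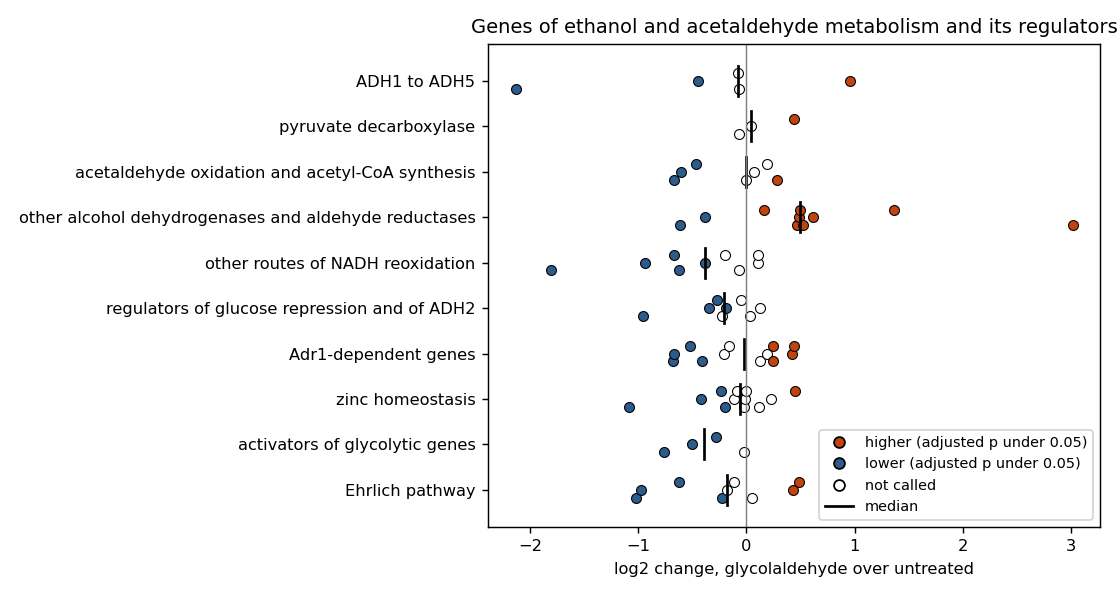
Log2 change, glycolaldehyde over untreated, of the isozyme genes (top) and of each gene in the 9 lists, one symbol per gene, with black bars for the medians. Filled symbols passed adjusted p under 0.05 in limma, orange for higher and blue for lower. Of the lists, other alcohol dehydrogenases and aldehyde reductases have the highest median, 0.49, and activators of glycolytic genes and other routes of NADH reoxidation the lowest, both at -0.39.

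The genes most like each isozyme gene over the 6 arrays were found by the root-mean-square difference of profiles centred on their own mean (log2), among 5151 genes with a standard name and above background on all arrays. For ADH5 they were SNZ1 of vitamin B6 synthesis (0.0414) and HIS4 of histidine synthesis (0.0577). For ADH2 they were DDI2 (0.0948), YRR1 (0.104) and STI1 (0.107), and for ADH3 they were NRE1 (0.0294), GCR1 (0.0339) and PYK2 (0.0348). ADH1 was most like TEF2 (0.0338) and also close to CDC3 (0.0406), and ADH4 most like RAD9 (0.0159), SCW10 (0.0160) and HHO1 (0.0174). Over these 6 arrays the profiles of ADH2, ADH3 and ADH5 consist mainly of the difference between the 2 groups. That of ADH1 consists mainly of the difference between scan days, which is also that between replicate 3 and the others.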

How the data were processed

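Single-colour Agilent arrays of 3 glycolaldehyde and 3 untreated samples were used. Per the file headers, the authors extracted spot intensity with Agilent Feature Extraction 11.0.1.1, background-subtracted and detrended, with no normalization between arrays. The deposited table holds, on a linear scale, the mean intensity of a probe's 7 spots, which was checked at every probe (relative tolerance 1e-06) and identified the scanner file of each column. No column was left without a sample (0). Per the file headers, flags for background, saturation and outliers were 0 or 1 per spot. The column medians were 3307, 3373 and 5055 for glycolaldehyde and 3545, 3346 and 4612 for untreated replicates 1 to 3. The number of arrays limits the precision.

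Log2 values minus the array's 75th percentile were fitted with limma 3.58.1 (lmFit, eBayes) in R 4.3.3, treatment as the only term, two-sided. A gene was tested when more than 0.5 of the spots of its probe were well above background on all 3 arrays of at least 1 group, and the brightest probe was kept for the 29 genes with several. The fit was tested on simulated data with independent normal errors for each probe and few changed probes. That test does not cover a shift shared by arrays or a large share of changed genes. The background alternative used median in place of mean spot signals. Of 6256 probes 5748 matched a RefSeq name (assembly R64). The headers name another build, so no coordinates are given, and probe, promoter and protein sequences were not used.

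The genes and lists were chosen with earlier results of these data known. Named genes are the 5 isozyme genes, the largest called rise and fall of each list, 5 regulators (ADR1, CAT8, ZAP1, GCR1 and RAP1) and the 3 nearest profiles per isozyme gene, of which 2 are not reported here. PDC1, PDC5, ADH6, MDH2 and SNF1 were named in addition, after their values were seen. Same-numbered arrays of the groups deviated together from the mean of their own group (r = 0.321, 0.401 and 0.621 over 5944 genes). This was taken as a reason to fit the replicate block. It comes from the data. Whether the 3 independent starter cultures pair the groups was not settled here, and the main fit holds no pairing. Both arrays numbered 3 were on slide 3 and scan day 2. A shift shared by these 2 arrays can by itself make all 3 r positive, so the values do not establish a pairing.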

Additional observations from a re-analysis of the deposited data

How the results depend on the processing

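The log2 changes of ADH2, ADH3, ADH4 and ADH5 kept their sign under all 21 alternatives, and those of ADH2, ADH3 and ADH5 kept their calls in all that allow a test, except as follows. Within scan day 2, with 1 array per group, no test was possible. With arrays grouped as the scanner files are attached, ADH2 (0.38), ADH3 (-0.19) and ADH5 (-0.70) were not called, and 0 isozyme genes, 0 list genes and 0 of all genes were called in either direction in limma. That grouping moves 2 arrays to the other group. With no normalization between arrays ADH3 was not called (-0.46), leaving 1 isozyme gene called lower. In this setting the SE was 0.27 (log2) for each of the 5 isozyme genes, against 0.07 for ADH3 in the main fit. This setting called 148 genes higher and 171 lower, among them 2 and 6 list genes, and the cause was not tested. ADH5 changed by -2.07 within scan day 2, outside its replicate SD. ADH1 turned positive with quantile normalization (0.00337) and without glycolaldehyde replicate 3 (0.092). Leaving out each replicate in turn gave -0.22 to 0.09 for ADH1, 0.87 to 1.06 for ADH2, -0.49 to -0.40 for ADH3, -0.09 to -0.05 for ADH4 and -2.15 to -2.10 for ADH5.

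The replicate block changed no call of an isozyme gene (ADH5 -2.13, adjusted p = 2.82e-07 in limma; ADH1 -0.08, adjusted p = 0.183) and called 2174 genes higher and 1730 lower over the array, against 1761 and 1397 without it. Counts of genes rest on 3 arrays per group, and replicates 1 and 2 of a group lie close together.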

Other observations

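The genes next to the isozyme genes on the chromosome (order of the RefSeq assembly R64) were looked up after the values of the isozyme genes had been seen. Beside ADH5, whose log2 change was -2.13, the ribosomal protein gene MRPS9 had a log2 change of -0.03 ± 0.05 (adjusted p = 0.676 in limma) and the reading frame YBR144C fell by 0.46 ± 0.16 (adjusted p = 0.0400). Beside ADH2, whose log2 change was 0.96, YME2 had 0.05 ± 0.05 (adjusted p = 0.411) and the ubiquitin protease gene UBP15 fell by 0.22 ± 0.07 (adjusted p = 0.0303). ADH4 lies next to ZRT1, the high-affinity zinc transporter gene, and neither passed: ZRT1 had a log2 change of -0.01 ± 0.05 (adjusted p = 0.822). MNT2, on the other side of ADH4, rose by 0.33 ± 0.06 (adjusted p = 0.00221). MHF1, next to ADH1, rose by 0.56 ± 0.07 (adjusted p = 0.000399). Beside ADH3, YMR084W had a log2 change of 0.09 ± 0.11 (adjusted p = 0.522). YOL085C, beside ADH1, and YMR082C, beside ADH3, were too dim to be tested.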
